A study of Mus musculus with 16 samples.

Results

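The genes described here carry a Zfp name, the mouse gene symbol for "zinc finger protein" followed by a number. Members were the genes whose symbol is Zfp, a number and at most 1 further letter, measured by a probe set that names no other gene and read above a log2 value of 4 on at least 2 of 16 arrays. The array held 612 probe sets that name a single Zfp gene, for 329 genes. Of these genes, 268 passed the level filter, out of 10802 genes of all kinds that passed it. Each gene is represented by its probe set with the highest mean.

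Expression was measured in P19CL6 cells, a clonal subline of the mouse embryonal carcinoma line P19 that forms beating cardiac muscle in dimethyl sulfoxide (DMSO). The 6 groups were DMSO day 4 (3 arrays), DMSO day 6 (2 arrays), DMSO day 8 (3 arrays), DMSO day 10 (3 arrays), DMSO day 12 (2 arrays) and growth, undifferentiated cells (3 arrays). All groups were P19CL6 in alpha-MEM with 10% FBS. The DMSO cultures were plated at a set density in medium with 1% DMSO that was renewed every 48 h, whereas growth cultures had no DMSO and were passaged every 48 h. DMSO, time since plating and the lack of passage therefore cannot be told apart. The submitters describe the samples of a group as independent.

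Most Zfp proteins bind DNA through C2H2 zinc fingers, short modules that each hold a zinc ion between a pair of cysteines and a pair of histidines and that read a few bases each. Many also carry a KRAB domain, which recruits the corepressor Trim28 (KAP1), and through it the histone methyltransferase Setdb1, heterochromatin proteins and, in early embryonic cells, DNA methylation. KRAB genes are known for silencing retroelements and for holding imprints, and they lie in clusters of young duplicates. Other Zfp proteins lack the domain and act as activators, as cofactors, or as RNA-binding proteins such as Zfp36.

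The cells followed the labels. The mean over 6 pluripotency markers (Pou5f1, Nanog, Sox2, Utf1, L1td1 and Lin28a) was 11.33 to 11.65 log2 on growth arrays, 7.12 to 8.48 on day 4 arrays and 5.84 to 6.43 on day 12 arrays. The mean over 6 cardiac muscle markers (Tnnt2, Myh6, Actc1, Tnni1, Myl7 and Nkx2-5) was 2.76 to 3.23 on growth arrays, 3.49 to 4.21 on day 4 arrays and 12.53 to 12.63 on day 12 arrays. The mean over 4 smooth muscle markers (Acta2, Myl9, Tagln and Cnn1) was 11.15 to 11.41 on day 12 arrays and 4.15 to 4.79 on growth arrays. Myh11, also listed for smooth muscle, did not pass the level filter. The mean over 3 endoderm markers (Afp, Ttr and Apoa1) was 8.80 to 9.02 on day 12 arrays and 2.87 to 2.97 on growth arrays. Sox17 and Sox7, also listed for endoderm, did not pass the level filter. The mean over 4 proliferation markers (Mki67, Plk1, Aurka and Top2a) was 10.84 to 11.11 on growth arrays, 10.12 to 10.30 on day 4 arrays and 8.99 to 9.01 on day 12 arrays. These markers did not move alike at day 4: Aurka (-1.52) and Plk1 (-1.19) were called lower than in growth. Mki67 (-0.45) and Top2a (0.13) were not called then, and Mki67 was called at no day. Ccnb1, also listed for proliferation, was not analysed here. In such whole cultures, fewer cells of a kind and less RNA per cell cannot be told apart. Day 8 replicate A stood with day 6: its cardiac marker mean was 4.49, the lowest of the 3 day 8 arrays, and over the 268 members it correlated at 0.987 and 0.982 with the day 6 arrays and at 0.967 and 0.964 with the other day 8 arrays.

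Of the 268 members, 212 lay above 4 on all 16 arrays and 56 were at or below 4 on at least 1 array. Only 3 members lay above 4 in a single group: Zfp296 and Zfp365 in growth and Zfp804a at day 12. Such genes enter only through the group where they are high, so some difference between groups follows from the filter. Just inside the filter, Zfp365 read 4.16 and 4.58 on its only arrays above 4. Just outside it, Zfp94 reached 5.23 and Zfp558 4.81 on 1 array each. The filter left out 61 genes, among them Zfp42 (Rex1), a classic marker of embryonic stem cells, which lay between 2.54 and 2.65 on all 16 arrays. The mean log2 value of the members had a median of 6.58, against 7.48 for all genes tested. Genes were called changed at an adjusted p under 0.05 in limma (Benjamini-Hochberg, across the 10802 genes) together with a change of 1 log2 or more.

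At day 4 more Zfp genes were higher than lower: 37 of 268 members were called higher than in growth (13.8%, background over all genes 13.3%) and 14 lower (5.22%, background 13.6%). At day 6 the counts were 41 higher (15.3%, background 14%) and 17 lower (6.34%, background 12.9%). At day 8 they were 42 higher (15.7%, background 16%) and 23 lower (8.58%, background 15%). At day 10 they were 39 higher (14.6%, background 18.5%) and 42 lower (15.7%, background 19.5%), and at day 12 they were 47 higher (17.5%, background 22.5%) and 39 lower (14.6%, background 19.3%). The share called higher was close to the background through day 8, and the share called lower was below it at each day. Without day 4 replicate C, 23 were lower at day 4, in a refit for which the share over all genes was not taken. The 5 comparisons share the growth arrays and are given side by side for that reason.

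Members had lower levels than genes at large, so the same shares were taken among genes with a mean above 6. There, 28 of 165 members were higher at day 4 (17%, against 14% of 7634 genes) and 5 were lower (3.03%, against 10.8%). At day 12 the shares were 18.8% higher and 14.5% lower for the members, against 19.9% and 18.6% for all such genes. The median log2 difference from growth over the 268 members was 0.104 at day 4, against -0.003 over all genes, and -0.002 at day 12, against 0.001. Over the time course 127 members passed the moderated F test and spanned 1 log2 or more between their group means (47.4%, background 60.9%). The median range was 1.03 log2 over the members and 1.27 over all genes.

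**Figure D1:**
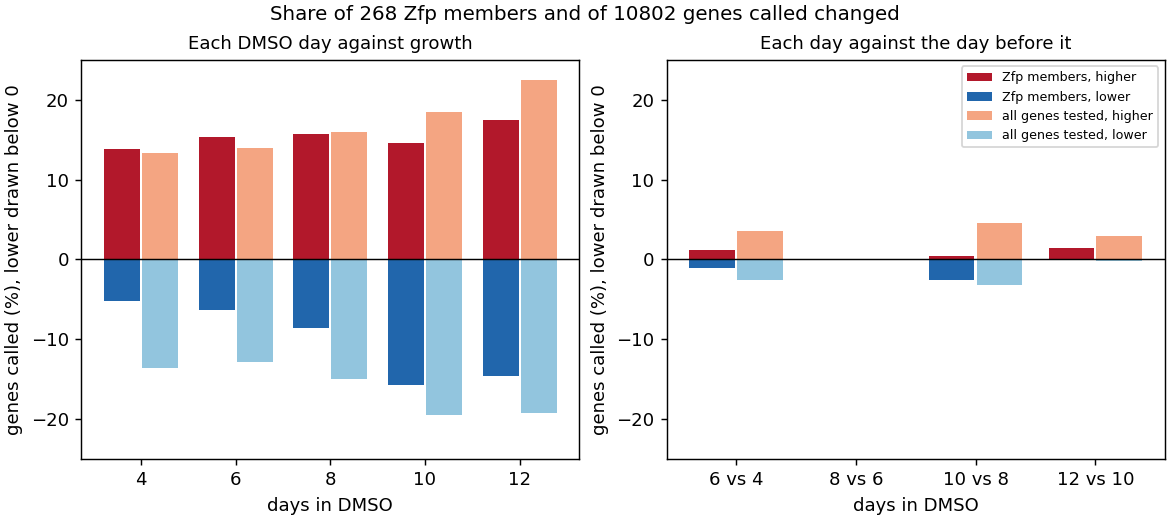
Percent of the 268 Zfp members (dark bars, left of each pair) and of all 10802 genes tested (pale bars, right) called higher (above 0) or lower (below 0), for each DMSO day against growth and for each day against the one before it. At day 4, 5.22% of members against 13.6% of all genes were lower; no member was called between days 8 and 6, where the background was 0 higher and 0.0185% lower.

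**Figure D2:**
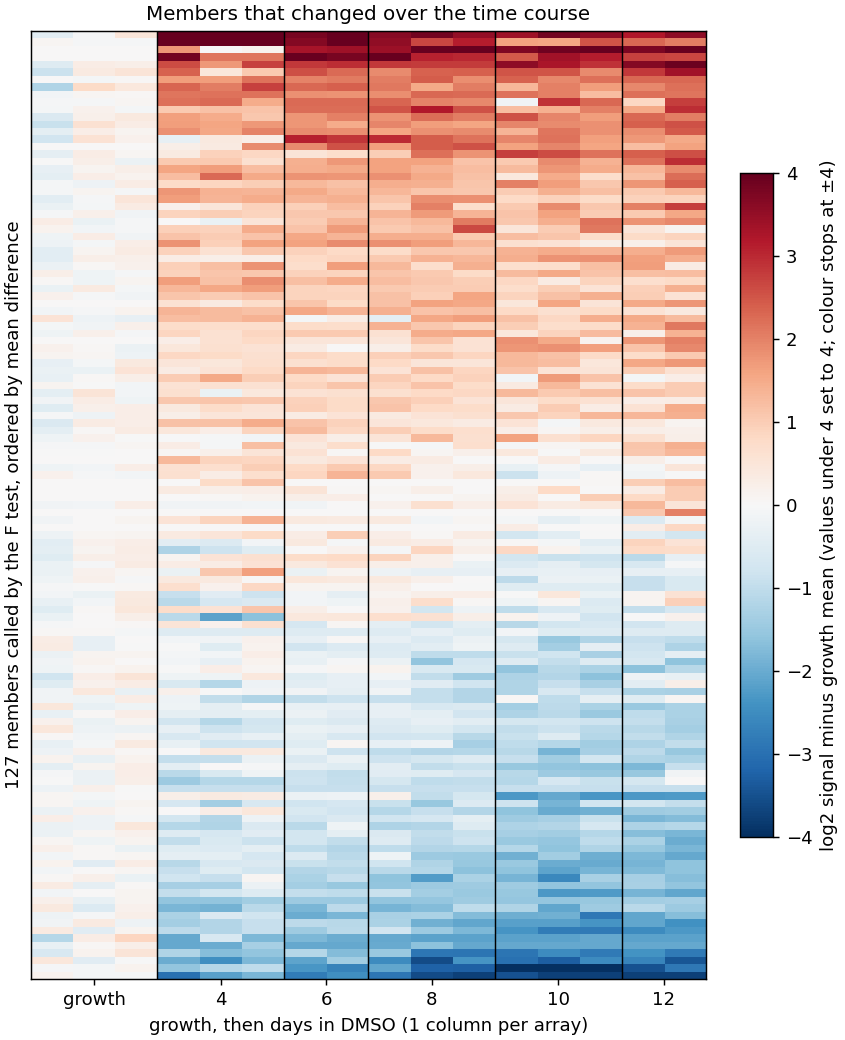
Log2 signal minus the growth mean for the 127 members called by the F test (1 line each, ordered by mean difference) on the 16 arrays (1 column each), with values under 4 set to 4 and the colour stopped at ±4. Most of the upper genes were already red at day 4, while the lower genes are mostly bluest at days 10 and 12.

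Between successive days few members passed the test. At day 6 against day 4, 3 were higher (Zfp9, Zfp462 and Zfp711; background 3.52%) and 3 lower (Zfp385b, Zfp703 and Zfp946; background 2.61%). At day 8 against day 6, 0 were called either way with limma (background 0% higher and 0.0185% lower), while 10 members had an unadjusted p under 0.05 (3.73%, against 11.5% of all genes). Without day 8 replicate A the counts were 3 higher (Zfp36, Zfp324 and Zfp618), against 3.74% of all genes, and 2 lower (Zfp239 and Zfp473), against 1.93% of all genes. At day 10 against day 8, 1 was higher (background 4.62%) and 7 were lower (Zfp503, Zfp566, Zfp592, Zfp703, Zfp850, Zfp867 and Zfp982; background 3.19%). At day 12 against day 10, 4 were higher (Zfp385b, Zfp804a, Zfp950 and Zfp982; background 2.88%) and 0 lower (background 0.185%), with 35 members at an unadjusted p under 0.05 in either direction (13.1%, against 17% of all genes). Single arrays moved these small counts, and a group of 2 with 1 array left out rests on the other alone. The ranges are given near the end. Shares over all genes were not taken in those refits, apart from the one without day 8 replicate A.

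In the step to day 10 most members had slightly lower values: 201 of 268 members had a difference below 0 (75%, against 55% of all genes), and the median difference was -0.196 log2 over the members, against -0.043 over all genes. Without day 8 replicate A the medians were -0.174 and -0.045. At day 12 against day 10, 41% of members lay below 0, against 46.6% of all genes, with medians of 0.095 and 0.031. Of the 201 members, 7 passed as lower, a smaller share of the members than the background. The mean over the cardiac markers was 11.45 to 11.77 on day 10 arrays and 4.49 to 8.36 on day 8 arrays. That over the smooth muscle markers was 9.55 to 9.78 on day 10 arrays and 4.93 to 7.85 on day 8 arrays. For 6 endothelium and blood markers it was 7.51 to 8.01 on day 10 arrays and at most 7.54 on day 8 arrays. The part of these changes in the members' values was not tested.

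**Figure D3:**
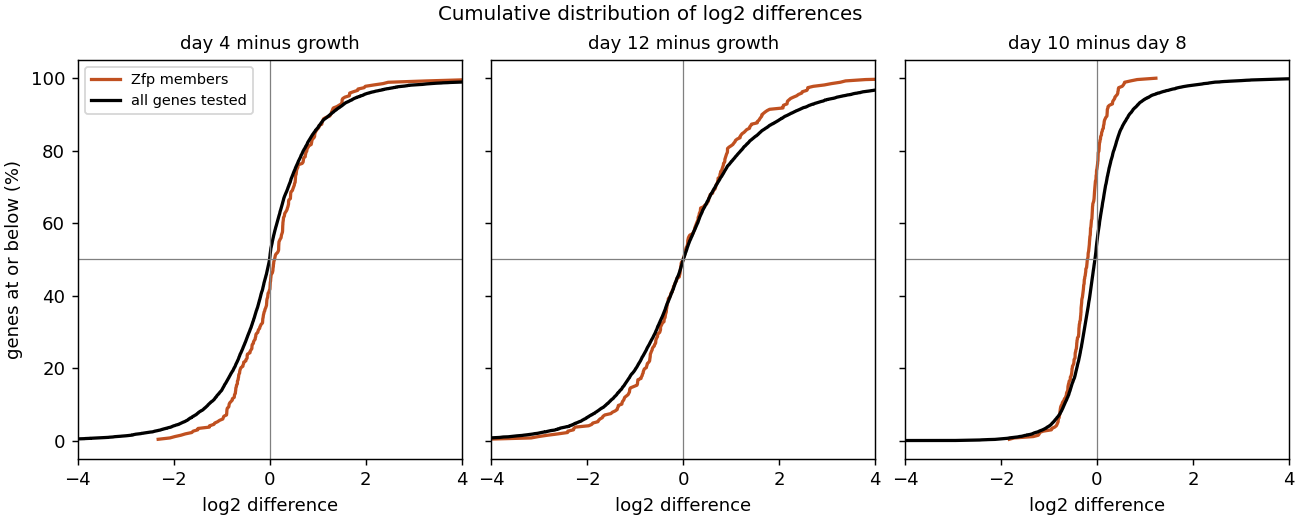
Percent of genes at or below each log2 difference, for the 268 Zfp members and for all 10802 genes tested, in 3 comparisons. The members' curve lies right of the all-gene curve over its lower part at day 4 minus growth, meets it near 0 at day 12 minus growth (medians of -0.002 and 0.001), and lies left of it at day 10 minus day 8, where 75% of members and 55% of all genes were below 0.

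Promoters are printed for 2 members that rose and 2 that fell, so that the sequence at their start sites can be set beside their course. RefSeq promoter windows of 300 bases (250 before and 50 after the first listed start, build GRCm38.p6) were found for 221 of the 268 members, and 45 members had more than 1 window. Capitals mark CG dinucleotides, the sites of DNA methylation in mammals. The rising genes are Zfp503 (chr14:21989552-21989851, minus strand) and Zfp467 (chr6:48445041-48445340, minus strand). The falling genes are Zfp473 (chr7:44748568-44748867, minus strand) and Zfp239 (chr6:117861774-117862073, plus strand).
Zfp503: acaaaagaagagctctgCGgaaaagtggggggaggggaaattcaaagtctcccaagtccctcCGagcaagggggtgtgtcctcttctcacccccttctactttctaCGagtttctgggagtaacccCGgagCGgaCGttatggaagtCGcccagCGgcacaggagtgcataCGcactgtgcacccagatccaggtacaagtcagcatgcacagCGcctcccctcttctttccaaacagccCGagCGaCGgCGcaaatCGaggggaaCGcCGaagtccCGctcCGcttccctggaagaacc
Zfp467: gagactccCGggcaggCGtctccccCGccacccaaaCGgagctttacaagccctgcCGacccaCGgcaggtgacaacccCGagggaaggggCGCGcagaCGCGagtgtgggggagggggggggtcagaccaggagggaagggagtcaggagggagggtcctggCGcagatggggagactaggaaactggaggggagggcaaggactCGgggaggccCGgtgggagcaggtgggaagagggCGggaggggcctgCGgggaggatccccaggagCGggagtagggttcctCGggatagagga
Zfp473: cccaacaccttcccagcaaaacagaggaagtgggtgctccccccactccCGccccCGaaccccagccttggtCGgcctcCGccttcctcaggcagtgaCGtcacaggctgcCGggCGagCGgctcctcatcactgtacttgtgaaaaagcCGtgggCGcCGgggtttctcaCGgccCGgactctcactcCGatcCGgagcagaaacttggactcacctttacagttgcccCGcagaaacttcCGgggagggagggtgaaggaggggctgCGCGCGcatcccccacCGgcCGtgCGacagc
Zfp239: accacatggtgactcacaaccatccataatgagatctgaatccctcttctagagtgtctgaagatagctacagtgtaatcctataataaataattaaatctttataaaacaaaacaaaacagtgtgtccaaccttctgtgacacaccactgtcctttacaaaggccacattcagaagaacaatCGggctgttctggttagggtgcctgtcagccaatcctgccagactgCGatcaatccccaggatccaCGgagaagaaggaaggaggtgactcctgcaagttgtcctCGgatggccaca
The windows of Zfp503, Zfp467 and Zfp473 held 19, 18 and 23 CG dinucleotides, and that of Zfp239 held 4. The median over the members' windows was 16, against 22 over the windows of 8784 genes tested and 7 over all 27025 genes with a window. Among members higher at day 4 the median was 17 (30 windows), and among those lower at day 4 it was 16.5 (12 windows). Among the 179 members called neither way at day 4 it was 16. These counts are a description and were not tested.

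Zfp703 had the widest range of all members. Zfp703 and its relative Zfp503 (Nolz1) belong to the NET family of corepressors, which act with Groucho proteins, and human ZNF703 is an oncogene of luminal breast cancer. Zfp703 read 9.57, 9.23 and 9.62 log2 at day 4, against 4.13, 2.97 and 3.42 in growth. The lowest day 4 array lay far above the highest growth array, and the difference was 5.97 ± 0.32 (SE), or 62.5-fold as measured (adjusted p = 6.77e-09, limma). Of the 3 growth arrays 2 were under 4, and with values under 4 set to 4 the difference was 5.43. Its group means were 3.51 in growth and 9.48, 7.87, 7.17, 5.95 and 6.22 at days 4, 6, 8, 10 and 12. It thus peaked at day 4 and fell again: day 6 against day 4 differed by -1.61 ± 0.35 (adjusted p = 0.0121). That second call was lost when either day 6 array was left out (differences of -1.46 and -1.76). The peak fell in the group where the mean over the streak markers Mixl1, Mesp1 and Eomes was 11.02 to 12.33, against 4.23 to 4.44 in growth.

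Zfp503 rose by less, and its group mean peaked later, at day 8. It was already called higher than growth at day 4 (1.12 ± 0.31, adjusted p = 0.00849). It read 7.27, 7.96 and 7.29 at day 8, against 4.68, 4.91 and 4.67 in growth. The groups did not overlap, and the difference was 2.75 ± 0.31 (adjusted p = 7.47e-06). It then fell: day 10 differed from day 8 by -1.20 ± 0.31 (adjusted p = 0.0197). The day 12 arrays, at 6.27 and 7.71, were far apart.

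Zfp516, an activator of the thermogenic gene program of brown fat, rose to a plateau by day 4. It read 8.67, 8.74 and 9.16 at day 4, against 4.21, 4.57 and 5.09 in growth, a difference of 4.23 ± 0.23 (adjusted p = 8.17e-09). Its group means stayed between 8.01 and 8.86 from day 4 to day 12, well clear of growth at 4.62. Its probe set ends in _x_at, a type that can bind related transcripts, and a second probe set of the gene rose by 2.67 at day 4 and 1.75 at day 12.

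Zfp9 was dim in growth, with all 3 arrays between 3.05 and 3.07, and was bright from day 6 on. At day 4 its arrays read 5.76, 3.25 and 4.15, so that 1 of 3 was still dim, and at day 6 both arrays stood at 7.30 and 7.39. The rise of day 6 over day 4 was 2.95 ± 0.56 (adjusted p = 0.00468), and it lost its call without day 6 replicate C (2.91) and when only those groups were fitted. Day 8 arrays read 7.43, 9.06 and 8.83, which is at least 21.7-fold above growth (difference 5.38 ± 0.50, adjusted p = 1.38e-06). Replicate A was the lowest of the 3 at day 8, as it was for the cardiac markers.

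Zfp711, an X-linked gene mutated in human intellectual disability whose protein recruits the histone demethylase Phf8, rose between days 4 and 6. It read 8.58 and 8.34 at day 6, against 5.14, 5.85 and 5.72 at day 4, a difference of 2.89 ± 0.35 (adjusted p = 1.66e-04). Day 4 did not pass against growth (0.10 ± 0.31, adjusted p = 0.837). Its group means were 8.00, 7.39 and 7.11 at days 8, 10 and 12, and day 12 was 1.64 ± 0.35 above growth (adjusted p = 0.00112).

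Zfp975, Zfp672, Zfp467 and Zfp397 also rose early and stayed up. Zfp975 was dim in growth and at least 6.54-fold higher at day 4 (6.71 ± 0.99 log2, SD, n = 3, adjusted p = 4.64e-05), and its second probe set rose by 2.60. Zfp672 was highest at day 12: its group means were 5.06 in growth and 7.43, 7.95, 7.87, 8.31 and 8.86 at days 4 to 12, and day 12 was 13.9-fold above growth (3.80 ± 0.31, adjusted p = 2.76e-07). Zfp467, which in mice favours fat over bone formation by marrow stromal cells, read 8.19 and 8.73 at day 12, against 4.53, 5.72 and 5.88 in growth. That difference was 3.09 ± 0.49 (adjusted p = 9.43e-05), whereas its day 4 arrays, from 5.83 to 7.73, overlapped those of growth. Zfp397 read 7.51, 7.25 and 7.93 at day 4, against 3.69, 5.97 and 5.62 in growth (2.47 ± 0.44, adjusted p = 4.25e-04). Growth replicate A was far below the other growth arrays.

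**Figure D4:**
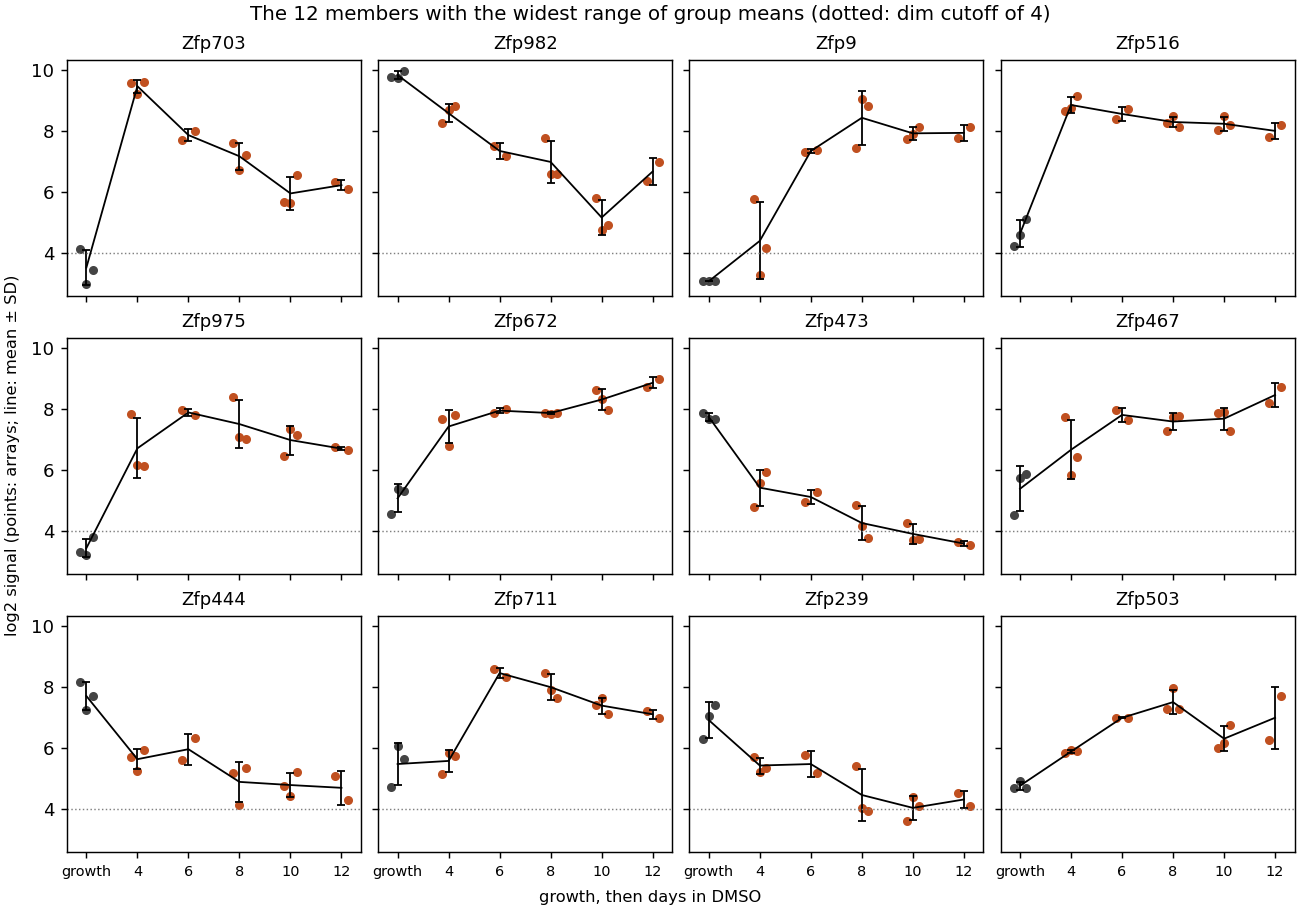
Log2 signal on each array (points), with group mean ± SD (line), in growth and at days 4 to 12 in DMSO for the 12 members with the widest range of group means. The dotted line is the dim cutoff of 4; Zfp703 peaked at day 4, Zfp711 changed between days 4 and 6, and Zfp473 had a mean of 3.57 at day 12.

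Zfp473 had lower group means at each successive day. Human ZNF473 (ZFP100) is a component of the machinery that cleaves the 3′ ends of replication-dependent histone mRNAs. Zfp473 read 4.76, 5.56 and 5.92 at day 4, against 7.88, 7.66 and 7.67 in growth, a difference of -2.32 ± 0.30 (adjusted p = 3.15e-05). Its group means were 7.74 in growth and 5.41, 5.11, 4.25, 3.89 and 3.57 at days 4, 6, 8, 10 and 12. At day 12 both arrays were dim (3.63 and 3.52), at least 13.3-fold below growth (difference -4.16 ± 0.34, adjusted p = 2.92e-07). The mean over the proliferation markers was also lower at day 12 than in growth, and its part in this difference was not tested.

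Zfp982 gave the largest fall of a single day on its kept probe set, which also ends in _x_at. It read 5.81, 4.74 and 4.92 at day 10, against 9.79, 9.76 and 9.98 in growth, a difference of -4.69 ± 0.33 (adjusted p = 8.44e-08). The other probe sets of the gene did not show this: at day 10 they differed from growth by -0.69 and -0.48, at day 12 the first of them passed (-1.64, adjusted p = 0.00449), and without _x_at and _s_at probe sets the gene passed at none of days 6, 8 and 10. Its call at day 12 against day 10 (1.51 ± 0.37, adjusted p = 0.0392) became -0.95 in that setting, and it was lost under 15 alternatives, 9 of which leave out 1 array. Whether the Zfp982 transcript changed as much as the kept probe set is uncertain.

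Zfp444 and Zfp239 were lower from day 4 on. Zfp444 read 5.08 and 4.30 at day 12, against 8.15, 7.26 and 7.70 in growth (-3.02 ± 0.40, adjusted p = 2.23e-05), but a second, dimmer probe set of the gene differed by -0.58 only. Zfp239, whose human counterpart MOK2 binds DNA and RNA, read 3.60, 4.39 and 4.09 at day 10, against 6.28, 7.04 and 7.42 in growth (-2.89 ± 0.39, adjusted p = 2.45e-05). Both genes had day 4 arrays below every growth array, with differences of -2.08 ± 0.36 for Zfp444 and -1.49 ± 0.39 for Zfp239 (adjusted p = 3.26e-04 and 0.00589).

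Others fell to or near the dim cutoff. Zfp874a was at least 4.12-fold lower at day 6 (-2.61 ± 0.29, adjusted p = 1.12e-05) and at day 10. Zfp941 was at least 4.40-fold lower at day 12, although its growth arrays ranged from 4.99 to 6.99. Zfp688 was 3.02-fold lower at day 4 (-1.59 ± 0.34, adjusted p = 0.00148), and its differences at the later days lay between -1.57 and -1.27. Zfp946 was 3.76-fold lower at day 6 than in growth (adjusted p = 1.33e-04), while its step from day 4 (-1.03, adjusted p = 0.0441) was lost under 13 of the alternatives tried, 9 of which leave out 1 array.

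The step to day 10 had its own falling genes. Zfp566 read 6.10, 6.35 and 6.04 at day 10, against 8.57, 7.39 and 7.69 at day 8, a difference of -1.72 ± 0.23 (adjusted p = 3.18e-04). The day 6 arrays read 8.15 and 8.18, against 8.31 to 8.45 for the 3 growth arrays, and days 4, 6 and 8 did not pass against growth. Zfp850 was 2.51-fold lower at day 10 than at day 8 (-1.33 ± 0.26, adjusted p = 0.00453) and 6.37-fold lower than in growth, and the first call was lost when only days 8 and 10 were fitted. The only member that rose in this step was Zfp827, which recruits the NuRD complex to telomeres in human cells. It read 7.22, 7.28 and 7.11 at day 10, against 5.70, 6.19 and 6.03 at day 8 (1.23 ± 0.20, adjusted p = 0.00162).

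Zfp804a, whose human counterpart lies at a schizophrenia risk locus, was dim until day 10 and read 5.09 and 6.01 at day 12. That is at least 2.93-fold above day 10, where the arrays read 3.29, 2.66 and 3.62 (2.37 ± 0.26, adjusted p = 9.03e-05). Zfp804a entered only through day 12, so some of this difference follows from the filter, and its p value is no independent evidence. The call was lost when only those groups were fitted. With no filter on dim probe sets, a different probe set of the gene, of higher mean, took the place of this one. That probe set did not show the rise: its difference was 0.39 and was not called. Zfp950 read 6.40 and 7.19 at day 12, against 5.28, 6.12 and 5.61 at day 10 (1.13 ± 0.29, adjusted p = 0.0481). The call for Zfp950 was lost under 21 alternatives, 13 of which leave out 1 array, whereas at day 12 against growth it rose by 2.59 ± 0.29 (adjusted p = 4.86e-06).

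Some members moved and came back. Zfp462, which in mouse embryonic stem cells maintains pluripotency and heterochromatin, dipped at day 4 only. It read 8.04, 6.96 and 7.47 at day 4, against 8.86, 9.14 and 9.35 in growth (-1.62 ± 0.27, adjusted p = 2.57e-04). At day 6 the arrays read 9.54 and 9.57, 2.07 ± 0.30 above day 4 (adjusted p = 7.51e-04), and the later groups did not pass against growth. Zfp592 did the reverse: its group means were 6.29 in growth, 7.73, 8.05 and 7.89 at days 4, 6 and 8, and 6.76 and 6.65 at days 10 and 12. Day 6 was 1.76 ± 0.25 above growth (adjusted p = 9.49e-05), and the day 12 difference was 0.36 ± 0.25 (adjusted p = 0.235). Zfp385b lay near the cutoff: its group means were 3.84 in growth and 4.62, 3.49, 3.51, 3.86 and 5.11 at days 4 to 12. Its call as lower at day 6 than at day 4 rests on dim arrays, since the difference was -0.64 with values under 4 set to 4 and 1 day 4 array was itself dim. At day 12 it was at least 2.15-fold above growth (adjusted p = 0.00126).

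Other members barely moved. Among members with a mean above 8, the narrowest ranges of group means were 0.31 log2 for Zfp664, 0.37 for Zfp384, 0.41 for Zfp322a, 0.48 for Zfp830 and 0.51 for Zfp638. Zfp384, whose human counterpart forms fusion genes in leukaemia, changed little on any array: its 16 arrays lay between 8.79 and 9.25. Zfp322a, which promotes Pou5f1 and Nanog expression in embryonic stem cells, had no called day although its single arrays ran from 7.11 to 8.75.

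Zfp genes with known roles in mesoderm, heart, mesenchyme and fat moved mostly upward. Of 12 listed genes 10 were tested, and at each of days 4, 6, 8, 10 and 12 there were 7 higher and 0 lower (70% and 0%). These were not the same 7 at each day: Zfp521, Zfp423, Zfp618 and Zfp36 passed at some days only. Of all genes, 13.3% to 22.5% were higher and 12.9% to 19.5% lower at these days. The median difference from growth over the 10 was 1.29, 1.81, 1.87, 1.62 and 2.02 log2 at these days, while the all-gene median lay between -0.017 and 0.009. Zfp703, Zfp516, Zfp503 and Zfp467 are on this list. Zfp260 was not analysed here, and Zfp536 was dim. The list was drawn up with results on these data known, so its direction is no independent evidence.

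Zfp148 (ZBP-89), a factor of GC-rich promoters, read 9.41, 9.47 and 8.70 at day 4, against 7.16, 7.16 and 7.29 in growth (1.99 ± 0.62, adjusted p = 0.0162). All 6 of its probe sets differed from growth in this direction, by 1.75 to 2.12 at day 4. At day 10 replicate A, at 7.07, was below the growth arrays, while the other 2 read 10.10 and 9.49. Zfp618, which binds hydroxymethylated DNA together with Uhrf2, rose late: it read 8.35, 8.21 and 7.77 at day 10, against 5.23, 5.91 and 5.67 in growth (2.51 ± 0.28, adjusted p = 5.02e-06).

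Zfp521, an inhibitor of Ebf1 that steers embryonic stem cells to neural fate, was called higher at days 4, 6 and 8. Its difference was 1.51 ± 0.23 at day 4 (adjusted p = 1.33e-04), and at day 12 it was 0.90 ± 0.26, under the size limit. Its paralog Zfp423, a determinant of fat cell precursors, passed at day 6 only, with 8.50 and 8.98, against 7.79, 7.58 and 7.53 in growth (1.11 ± 0.28, adjusted p = 0.00649). Zfp36 (tristetraprolin) has CCCH fingers and destabilises AU-rich mRNAs, and it was 1.29 ± 0.43 higher at day 4 and 1.38 ± 0.48 higher at day 12 (adjusted p = 0.0224 and 0.0219). Between them, Zfp36 did not pass at day 6 (0.11 ± 0.48) or day 8 (0.94 ± 0.43). Zfp638, which promotes adipocyte differentiation, did not pass at any day.

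Of 13 listed Zfp genes tied to pluripotency or imprinting 9 were tested. At day 4, 1 was higher and 2 lower (11.1% and 22.2%, background 13.3% and 13.6%), and at day 12, 0 were higher and 2 lower (0% and 22.2%, background 22.5% and 19.3%). No direction for the list is read from counts this small. The median difference was 0.19 at day 4 and -0.70 at day 12. Zfp296, a partner of Klf4 in reprogramming, was dim on all 13 DMSO arrays, the highest at 3.19, against 4.72, 5.14 and 4.93 in growth. At day 4 it was at least 1.91-fold lower than in growth (difference -1.98 ± 0.15, adjusted p = 2.52e-07). Zfp296 entered only through growth, so some of this difference follows from the filter, and its p value is no independent evidence. Zfp217, a component of CtBP and Lsd1 repressor complexes, read 7.03, 6.63 and 6.74 at day 10, against 8.42, 8.83 and 8.71 in growth (-1.85 ± 0.17, adjusted p = 6.19e-07), after day 4 arrays that overlapped growth.

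Zfp57, the KRAB protein that keeps methylation at imprinted regions, was called higher at days 4, 6, 8 and 10, with differences between 1.11 at day 4 and 1.62 at day 8. It read 6.17, 6.30 and 7.75 at day 8, against 5.26, 5.01 and 5.07 in growth (1.62 ± 0.42, adjusted p = 0.00542), and by day 12 the difference was 0.30 ± 0.47 (adjusted p = 0.599). Zfp219, a partner of Sox9 in cartilage, passed as lower at day 10 (-1.15 ± 0.30, adjusted p = 0.00488). Zfp281, which acts with Nanog and Tet1, was at 9.19, 9.54 and 9.32 in growth and did not pass at any day, its difference at day 12 being -0.77. Zfp207 (BuGZ), a spindle and Bub3-binding protein, and Zfp322a did not pass either. Zfp143, Zfp706 and Zfp640 were not analysed here.

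Of 13 listed KRAB repressors with known targets 12 were tested. At day 4, 1 was higher and 0 lower (8.33% and 0%, background 13.3% and 13.6%), and at day 12, 2 were higher and 4 lower (16.7% and 33.3%, background 22.5% and 19.3%). These counts too are small, and the single genes are given as values. The median difference was -0.07 at day 4 and -0.64 at day 12. Zfp110 (NRIF), a binding partner of the neurotrophin receptor p75, read 8.19 and 7.98 at day 12, against 9.95, 10.06 and 10.15 in growth (-1.97 ± 0.24, adjusted p = 1.11e-05). Its other probe sets gave -2.20 and -2.61.

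Zfp568, which represses the placental promoter of Igf2 in the mouse embryo, read 9.05 and 8.80 at day 12, against 10.60, 9.96 and 9.92 in growth (-1.23 ± 0.22, adjusted p = 2.43e-04). Zfp932, a repressor of endogenous retroviruses, was lower at day 12 (-1.28 ± 0.29, adjusted p = 0.00158), and Zfp961 was lower at day 10 (-1.57 ± 0.24, adjusted p = 7.49e-05). Zfp809, which silences murine leukaemia virus in embryonic cells, had differences between -0.03 and 0.39 and passed at no day. The related genes Zfp354a, Zfp354b and Zfp354c lie in 1 run of 5 members on chromosome 11. Zfp354c was higher at day 8 (1.48 ± 0.19, adjusted p = 2.32e-05) and Zfp354a lower at day 10 (-1.35 ± 0.30, adjusted p = 0.00146). Zfp354b, dim in growth, was at least 1.47-fold higher at day 12 (adjusted p = 4.36e-04). Zfp354b read above 4 only on day 10 replicate A (4.29) and on the day 12 arrays (4.29 and 4.83). Some of its difference thus follows from the filter, and its p value is no independent evidence.

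The corepressor genes that serve KRAB proteins are not themselves Zfp genes, and those that passed were lower. Of 28 listed genes 26 were tested: 0 were higher at any day, and 5, 5, 7, 10 and 10 were lower at days 4, 6, 8, 10 and 12. That is 19.2% lower at day 4 (background 13.6%) and 38.5% at day 12 (background 19.3%), and 0% higher (background 13.3% to 22.5%). This list too was drawn up with results on these data known, so its direction is no independent evidence. The median difference was 0.03 at day 4 and -0.45 at day 12. Trim28 itself was bright throughout and did not pass: it read 10.99 and 11.33 at day 12, against 11.88, 12.06 and 12.04 in growth (-0.83 ± 0.23, under the size limit). Other genes moved either way under the size limit. At day 4 Atf7ip differed by 0.86 ± 0.17, Ehmt1 by 0.79 ± 0.18, Smarcad1 by 0.75 ± 0.22 and Setdb1 by 0.73 ± 0.17. Daxx differed by -0.96 ± 0.21 and Resf1 by -0.68 ± 0.19 at that day, and Hdac2 by 0.94 ± 0.21 at day 12. Several genes of DNA methylation were among those called lower. Dnmt3b, a de novo methyltransferase, differed by -5.73 ± 0.38 at day 12 (adjusted p = 4.19e-08), and its cofactor Dnmt3l was dim at all DMSO days. Dnmt3l, counted above as lower at each day, read above 4 only in growth (4.33, 5.81 and 6.05). It entered only through growth, so some of its difference follows from the filter, and its calls are no independent evidence. Suv39h2, an H3K9 methyltransferase, was lower by day 4 (-1.12 ± 0.29, adjusted p = 0.00543) and differed by -3.00 ± 0.32 at day 12.

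**Figure D5:**
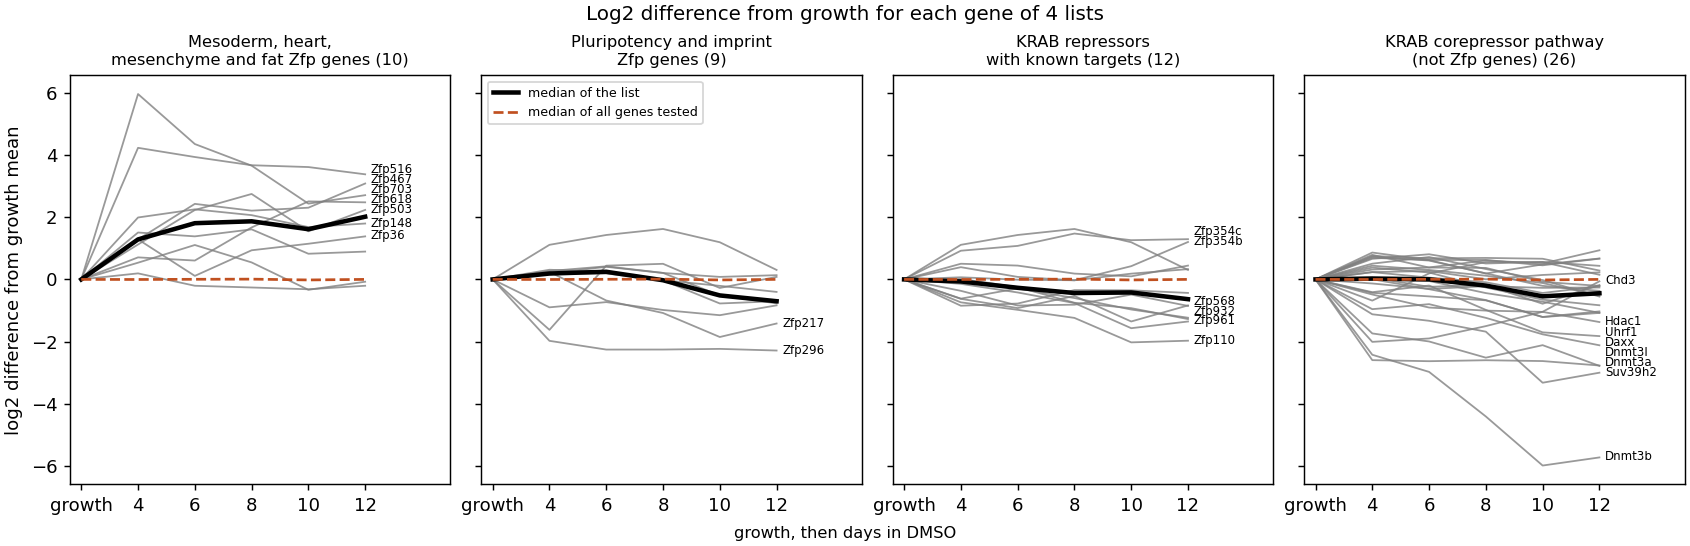
Log2 difference from the growth mean at each DMSO day for every tested gene (grey lines) of 4 lists, with the list's median (black) and the median over all genes tested (dashed). The 10 mesoderm, heart, mesenchyme and fat genes had medians from 1.29 to 2.02, while those of the 9 pluripotency and imprint genes and the 12 KRAB repressors lay between 0.25 and -0.70; gene names mark larger changes.

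Many members lie in clusters. In the RefSeq table (GRCm38.p6) 60 members are on chromosome 7 and 40 on chromosome 17, and 104 of the 268 lie in 13 runs of at least 4 members with starts no more than 500 kb apart. The longest run, 20 members on chromosome 17 from Zfp160 to Zfp13 that includes Zfp946, had 4 higher and 0 lower at day 4 (background 13.3% and 13.6%), and 3 higher and 1 lower at day 12 (background 22.5% and 19.3%). The next, 13 members from Zfp871 to Zfp414 on the same chromosome, had at most 2 higher and 0 lower at any day. On chromosome 7 the 10 members from Zfp84 to Zfp566, Zfp568 among them, had 1 higher and 3 lower at day 12. Counts per run were not tested against the background. Close paralogs in such runs can share probe sequence, so that single genes there are less certain.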

How the data were processed

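RNA from 16 cultures was measured on 1 Affymetrix array each. The deposited values come from GCRMA, per the submitters' processing notes, which corrects background by probe sequence, normalizes by quantiles and summarizes probe sets. The scale is not stated in the sources used here, and the deposited values were read as log2 intensities from their range. Values under 4 were treated as dim. Probe sets had to exceed 4 on at least 2 arrays, and each gene kept, of its probe sets naming that gene alone, the one of highest mean, which left 10802 genes. Groups were compared with limma 3.58.1 in R 4.3.3 (1 mean per group, all 16 arrays, 10 residual and 3.53 prior degrees of freedom), checked on simulated data. Each DMSO day was set against growth and against the day before it. Where all arrays of a group were dim, the fold was taken against 4 and is a lower bound. The number of arrays limits precision. Symbols and neighbours came from the RefSeq table through Entrez identifiers, which matched for all 268 members.

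Named genes were the 5 largest called changes each way per day against growth and the 3 largest per step (groups of arrays not overlapping), the 12 widest ranges, the 5 narrowest with a mean above 8, transient genes and listed genes. Zfp94, Zfp324, Zfp365, Zfp558, Zfp867 and the genes that end a run of neighbours were named after their values were seen. The members and lists were chosen with earlier results of these data known. Figures used matplotlib 3.10.9. Exact permutation tests of the control probe sets were two-sided: the 3′ minus 5′ log2 difference was 0.88 ± 0.18 on 13 DMSO arrays and 0.91 ± 0.04 on 3 growth arrays for Actb (SD, exact permutation p = 0.646), and -0.30 ± 0.07 and -0.33 ± 0.03 for Gapdh (exact permutation p = 0.55).
Alternatives covered the filter on dim probe sets, normalization, probe set choice, thresholds, array weights, a replicate block, the groups fitted and each array left out. Counts of fingers and KRAB boxes per protein were not analysed here.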

Additional observations from a re-analysis of the deposited data

Results flagged for a closer look

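Probe sets that name several genes entered no comparison. Those with a Zfp name were searched only for rises over growth. A rise needed every array of a day above every growth array, a difference of at least 1 log2 and a day mean above 4. This search gave 2 probe sets. A probe set with 7 gene names averaged 9.60 ± 0.40 log2 at day 12 (SD, n = 2) and 6.31 ± 0.17 in growth (SD, n = 3), a difference of 3.29. Which of its 7 genes it reports cannot be said, so none is named. A probe set with 2 gene names averaged 6.66 ± 0.35 at day 4 and 5.13 ± 0.30 in growth (SD, n = 3 each), a difference of 1.53. Falls were not searched for, and 1 was larger than either rise. A probe set with 3 gene names averaged 3.52 ± 0.35 at day 10 and 8.35 ± 0.48 in growth (SD, n = 3 each), a difference of -4.83. At day 12, 2 further probe sets with 2 gene names differed from growth by -2.67 and -2.69. These differences were not tested.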

How the results depend on the processing

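Of 588 recomputed counts of members, 531 stayed within 1.5 times the reported one, and of 1673 recomputed differences of named genes, 1609 kept direction and call, 63 lost the call and 1 reversed. The reversal was Zfp982 at day 12 against day 10, which became -0.95 without _x_at and _s_at probe sets. With no limit on size, the counts against growth at days 4, 6, 8, 10 and 12 became 70, 65, 75, 61 and 76 higher and 48, 38, 52, 81 and 68 lower. In the steps this gave 5 lower at day 6, and 2 higher and 25 lower at day 10. Among members with a mean above 6, which are fewer, the F test called 83, lower counts were 5, 6, 10, 22 and 24, day 12 had 31 higher, and day 12 against day 10 had 1 higher. With all probe sets, day 4 had 22 lower and day 10 against day 8 had 2 higher. Array weights gave 8 higher and 5 lower at day 6 against day 4, 4 and 3 at day 8 against day 6, and 2 higher at day 10 against day 8. The 4 higher at day 12 against day 10 became 1 with no filter on dim probe sets, 0 with a stricter filter at log2 6, 2 with quantile normalization again, 0 with only the groups compared, 1 when a gene's probe sets were averaged and 1 at an adjusted p under 0.01. Only the groups compared gave 2 lower at day 10 against day 8, and an adjusted p under 0.01 gave 0 lower at day 6 against day 4. The causes were not tested. Shares over all genes were taken only among genes with a mean above 6 and without day 8 replicate A. The other recomputed counts, here and below, show how the members' counts moved and not how they stand against all genes.

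With 1 array left out, where a group of 2 then rests on 1 array assumed to vary like the other groups, lower counts at day 4 against growth ran from 14 to 23, the highest without day 4 replicate C. In the steps, day 6 against day 4 ran from 2 to 5 higher and 0 to 5 lower, day 8 against day 6 from 0 to 3 higher and 0 to 2 lower (the highest without day 8 replicate A), and day 10 against day 8 from 1 to 2 higher. Day 12 against day 10 ran from 1 to 7 higher, the highest without day 12 replicate A, and 0 to 1 lower. A replicate block gave 2 higher at day 12 against day 10 in place of 4 and moved no other count by over 1.5 times. Same-letter samples correlated in their deviations between -0.207 and 0.324 (median 0.0632, 35 pairs), and other-letter samples between -0.343 and 0.344 (median -0.0334, 71 pairs). Of these, 13 same-letter and 7 other-letter pairs exceeded 0.1. Same-letter samples were thus somewhat more alike, and what they share was not tested. The labels do not say what a letter marks, so the main fit took no block. Dim signal limits what can be said of the 61 genes left out, and groups of 2 or 3 arrays limit every step between days.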

Other observations

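Other zinc finger families named by their domains were fewer. Of 34 Zbtb genes, which join zinc fingers to a BTB domain, 5 were higher and 4 lower at day 4, and 6 higher and 2 lower at day 12 (14.7% and 11.8%, then 17.6% and 5.88%). Of all genes, 13.3% were higher and 13.6% lower at day 4, and 22.5% higher and 19.3% lower at day 12. Of 16 Zscan and Zkscan genes, which carry a SCAN domain, 1 was higher and 1 lower at day 4, and 1 higher and 2 lower at day 12 (6.25% and 6.25%, then 6.25% and 12.5%). Of 12 Zc3h genes, which have RNA-binding CCCH fingers, 2 were higher and 1 lower at day 4, and 3 higher and 2 lower at day 12 (16.7% and 8.33%, then 25% and 16.7%). In the step to day 10 the median differences were -0.26 for Zbtb, -0.20 for Zscan and Zkscan, and -0.11 for Zc3h genes, against -0.043 for all genes. Of the 127 Zfp members called over the time course, 40 had their highest group mean in growth, 24 at day 4, 17 at day 6, 8 at day 8, 7 at day 10 and 31 at day 12. Their lowest means lay in growth for 60, at day 4 for 11, day 6 for 1, day 8 for 3, day 10 for 26 and day 12 for 26. The same split was not made for all genes, so these counts are not read as particular to the members.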
